A study of Mus musculus with 6 samples.

Results

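The genes described here encode 10 glycosyltransferases that build glycosphingolipids: B3gnt5, Ugcg, B4galt5, B4galt6, St3gal5, St8sia1, B4galnt1, B3galt4, A4galt and St3gal2. They were taken by name from a table of 24537 gene symbols, and all 10 had a row. B3gnt5 was chosen by its measured difference between the groups, since it held the smallest p-value of the table, and the others because they act beside it in the same pathway, so their differences between the groups are a description and carry no test here. The table holds poly(A) RNA-seq read counts of 6 brain tumors from CD-1 IGS mice. The tumors were made by in utero electroporation, in which plasmids are driven into cells of the embryonic brain by an electric pulse. All 6 carried PdgfraD482V, a mutant of the receptor gene Pdgfra, together with DNp53, a dominant-negative p53. By their titles, the 3 FOXR2-titled libraries carried in addition FOXR2, a forkhead transcription factor, and the 3 titled Control did not. The sources used here give no age, no promoter for the constructs and no statement on whether each library came from its own animal.

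Glycosphingolipids are sugar chains on a ceramide lipid anchor, set in the outer leaflet of the cell membrane. Ugcg adds glucose to ceramide, and B4galt5 or B4galt6 adds galactose to make lactosylceramide, from which the main series branch. B3gnt5 adds N-acetylglucosamine and opens the lacto and neolacto series, whose chains can carry the Lewis X and HNK-1 epitopes. St3gal5 adds sialic acid and opens the ganglioside series, the major series of the brain. A4galt opens the globo series.

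Directions depend on the labels. Groups were taken from the sample titles, but the deposited sample sheet swaps the group of 6 of 6 libraries, and every direction below turns round if the sheet is right. Foxr2 itself had 22, 1 and 7 counts in the FOXR2-titled libraries and 4, 10 and 7 in the Control-titled ones, so it did not settle the labels, and a construct without the mouse gene's sequence need not add counts to it. Libraries held 13429489 to 17927025 counts. Levels are CPM, which correct counts for library size, here with TMM factors. The floor, set at 3 counts, came to 0.174 to 0.219 CPM and covers counting error only. FOXR2 replicate 2 stood apart in microglia and macrophage markers, with a summed level of 1191 CPM over 11 markers against 4.18 to 13.9 CPM in the other 5 libraries.

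B3gnt5 was abundant in every FOXR2-titled library and scarce in every Control-titled library. It had 1411, 1468 and 1294 counts in FOXR2 replicates 1, 2 and 3, or 92.1, 92.9 and 94.4 CPM. In Control replicates 1, 2 and 3 it had 61, 46 and 69 counts, or 3.66, 2.74 and 4.01 CPM. The groups were far apart and no library lay between them. The means were 93.1 ± 1.20 and 3.47 ± 0.654 CPM (SD, n = 3 each), a 26.8-fold difference and a log2 difference of 4.74 ± 0.22 (fitted log2 fold change, titled FOXR2 minus titled Control, ± SE of the edgeR fit). Leaving out any 1 library left this value between 4.61 and 4.86.

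The SD of log2(CPM + 0.5) of B3gnt5 was 0.0184 in the FOXR2-titled libraries and 0.248 in the Control-titled ones. A small spread is part of what gives a small p-value, by which the gene was chosen, so nothing is read from these SDs.

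Of the 10 genes 9 passed the filter on low counts, and B3gnt5 was the 1 that edgeR's quasi-likelihood test called (Benjamini-Hochberg adjusted p under 0.05 over all genes), where 2.29% of the 13101 tested genes were called (0.908% higher and 1.38% lower). The groups did not overlap in 4 of the 9, where 30.3% of all tested genes did not overlap. These 4 were B3gnt5, St8sia1 and St3gal2, higher in the FOXR2-titled libraries, and Ugcg, lower there. Their median log2 difference over the 9 was 0.34, against 0.011 over all tested genes. Since the contrast was known when the genes were chosen, nothing is read from these counts. In tumor tissue, fewer cells of a type and less RNA per cell cannot be told apart.

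**Figure D1:**
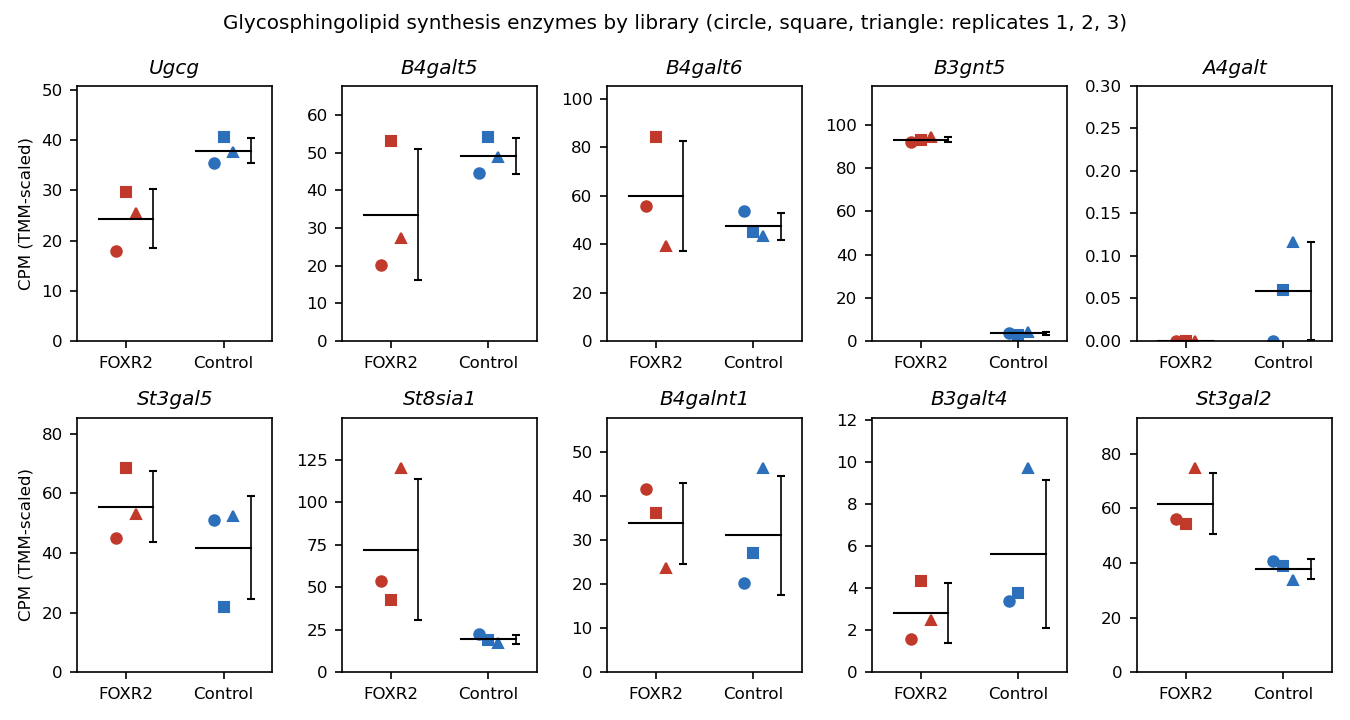
Levels of the 10 enzymes in TMM-scaled CPM (vertical axes, each from 0) in the 3 FOXR2-titled libraries (red) and the 3 titled Control (blue), with circles, squares and triangles for replicates 1, 2 and 3, a line for the mean and a bar for ± SD. B3gnt5 sits at 92.1 to 94.4 CPM in the FOXR2-titled libraries and at 2.74 to 4.01 in the Control-titled ones, while most other panels overlap.

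Promoter sequence is shown for 4 of the enzymes, 3 because their groups did not overlap (B3gnt5, St8sia1 and Ugcg) and B3galt4 because it held a motif that was searched. RefSeq's promoter table (GRCm38.p6) had entries for 7 of the 10 genes. Each run below is the 250 bases before the annotated start, 5′ to 3′ on the gene's strand. B3gnt5 is at chr16:19759984-19760233 (+), St8sia1 at chr6:142964453-142964702 (-), Ugcg at chr4:59189300-59189549 (+) and B3galt4 at chr17:33951489-33951738 (-). Capitals mark GGGCGG, the GC box bound by Sp1-type factors, on either strand, and in B3galt4 also CCGGAA, an ETS core, read on the other strand.
B3gnt5: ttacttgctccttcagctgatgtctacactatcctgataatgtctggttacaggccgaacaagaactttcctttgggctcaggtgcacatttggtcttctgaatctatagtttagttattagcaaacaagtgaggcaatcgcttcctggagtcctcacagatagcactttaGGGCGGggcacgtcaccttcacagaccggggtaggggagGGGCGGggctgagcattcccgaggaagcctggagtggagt
St8sia1: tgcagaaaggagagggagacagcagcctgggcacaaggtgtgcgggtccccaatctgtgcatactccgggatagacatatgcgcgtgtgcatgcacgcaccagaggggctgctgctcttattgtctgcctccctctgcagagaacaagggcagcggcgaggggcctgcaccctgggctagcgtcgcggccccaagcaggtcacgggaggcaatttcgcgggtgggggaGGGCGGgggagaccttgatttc
Ugcg: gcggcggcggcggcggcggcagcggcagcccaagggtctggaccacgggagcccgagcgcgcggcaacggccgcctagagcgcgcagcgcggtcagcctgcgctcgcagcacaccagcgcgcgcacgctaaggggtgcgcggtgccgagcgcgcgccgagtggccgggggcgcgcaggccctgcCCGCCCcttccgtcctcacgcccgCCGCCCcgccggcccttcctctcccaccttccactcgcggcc
B3galt4: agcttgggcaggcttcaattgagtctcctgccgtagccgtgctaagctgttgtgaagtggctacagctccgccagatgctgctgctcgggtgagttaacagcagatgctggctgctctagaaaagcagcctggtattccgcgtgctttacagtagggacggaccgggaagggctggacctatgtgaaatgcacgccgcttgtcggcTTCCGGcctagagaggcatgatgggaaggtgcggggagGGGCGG

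CCGGAA was found in 1 of the 7 promoters, B3galt4, where it begins 44 bases before the start, and 12.03% of the 32851 promoters in the table hold it in the same window. The forkhead motif GTAAACA, in 3.17% of all promoters, and the E-box CACGTG, in 6.02%, were found in 0 of the 7. GGGCGG was added after the sequences had been seen, and occurs in all 7 and in 32.7% of all promoters. It occurs at 2 places in B3gnt5, beginning 79 and 40 bases before the start. The B3gnt5 window was 51.2% G and C, near the median of 52.4% over all promoters, whereas the other 6 had 59.2 to 80.4%. Ugcg, at 80.4%, had more G and C than 98.9% of all promoters. A match describes these letters alone, and the start that these tumors used is not known from the counts.

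The enzymes of the shared steps before the branch point did not follow B3gnt5. Ugcg, which makes glucosylceramide, stood at 17.9, 29.6 and 25.5 CPM in FOXR2 replicates 1 to 3, and at 35.6, 40.7 and 37.6 CPM in Control replicates 1, 2 and 3. Every FOXR2-titled library was below every Control-titled library. The means of 24.3 ± 5.92 and 38.0 ± 2.56 CPM (SD, n = 3 each) gave a log2 difference of -0.64 ± 0.23.

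B4galt5 and B4galt6 both make lactosylceramide, and neither was called (edgeR adjusted p = 0.373 and 0.505). B4galt5, the more widely expressed of the pair, had 20.3, 53.2 and 27.2 CPM in the FOXR2-titled libraries and 44.5, 54.2 and 48.8 CPM in the Control-titled ones. FOXR2 replicate 2 lay among the Control-titled libraries, and the other 2 lay below them all. Its log2 fold change was -0.55 ± 0.35, and -1.05 without FOXR2 replicate 2. B4galt6, known for its expression in brain, had 55.9, 84.3 and 39.3 CPM against 53.7, 44.8 and 43.5 CPM, and FOXR2 replicates 1 and 3 lay on either side of the Control-titled libraries (0.34 ± 0.29, and 0.0059 without FOXR2 replicate 2). On CPM per kilobase of exon, B4galt5 made up 32.9, 46.0 and 48.3% of the sum of the pair in the FOXR2-titled libraries and 52.8, 62.0 and 60.2% in the Control-titled ones. This share did not overlap between the groups, with means of 42.4 ± 8.33% and 58.3 ± 4.89% (SD, n = 3 each). The nearest values were 48.3 and 52.8%. Levels of single genes did not overlap in 30.3% of all tested genes, so nothing is read from this share.

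In the ganglioside series, the sialyltransferases St8sia1 and St3gal2 were higher in the FOXR2-titled libraries, and St3gal5, which opens the series, overlapped. St3gal5 makes GM3 from lactosylceramide. It had 45.0, 68.3 and 53.2 CPM in the FOXR2-titled libraries and 51.0, 21.9 and 52.3 CPM in the Control-titled ones, where replicate 2 was low. Its log2 fold change was 0.41 ± 0.35, and 0.11 without Control replicate 2.

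St8sia1 adds a further sialic acid to GM3 and makes GD3, a ganglioside of neural stem cells and glial precursors. It had 54.0, 42.8 and 119.9 CPM in the FOXR2-titled libraries and 22.3, 19.3 and 17.1 CPM in the Control-titled ones. All FOXR2-titled libraries were above all Control-titled ones, and FOXR2 replicate 3 was 2.80 times as high as the lowest of its own group. The means of 72.2 ± 41.7 and 19.6 ± 2.62 CPM (SD, n = 3 each) differed 3.69-fold, a log2 difference of 1.88 ± 0.40, which was 1.30 without FOXR2 replicate 3. With all libraries DESeq2 called it and edgeR did not, and edgeR called it without FOXR2 replicate 2. Counts of St8sia1 may include reads of the overlapping opposite-strand transcript Gm7457, which had 10 counts over all libraries.

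St3gal2 adds terminal sialic acid to complex gangliosides such as GD1a and GT1b, and also acts on glycoproteins. It stood at 56.2, 54.4 and 74.6 CPM in the FOXR2-titled libraries and at 40.7, 39.0 and 33.8 CPM in the Control-titled ones. The groups did not overlap, and the log2 fold change was 0.71 ± 0.20 (called by DESeq2 and not by edgeR).

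The 2 enzymes between them in the series did not share this pattern. B4galnt1 makes GM2 and GD2, and had 41.6, 36.1 and 23.6 CPM against 20.2, 26.9 and 46.2 CPM. Its groups overlapped over nearly their whole range, and its log2 difference of 0.12 ± 0.36 became -0.12 without Control replicate 1 and -0.051 without FOXR2 replicate 1. It overlaps the opposite-strand gene Slc26a10, which had 48 counts over all libraries. B3galt4, which makes GM1 and GD1b, was low throughout, at 1.57, 4.37 and 2.48 CPM against 3.42, 3.76 and 9.70 CPM. Its log2 fold change was -1.0 ± 0.58, and -0.36 without Control replicate 3, the library with the highest level.

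The globo series had next to no transcript of its opening enzyme. A4galt had 0 counts in each FOXR2-titled library and 0, 1 and 2 counts in Control replicates 1, 2 and 3. It was below the floor of 3 counts in all 6 libraries and did not pass the filter, so no fold is given.

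**Figure D2:**
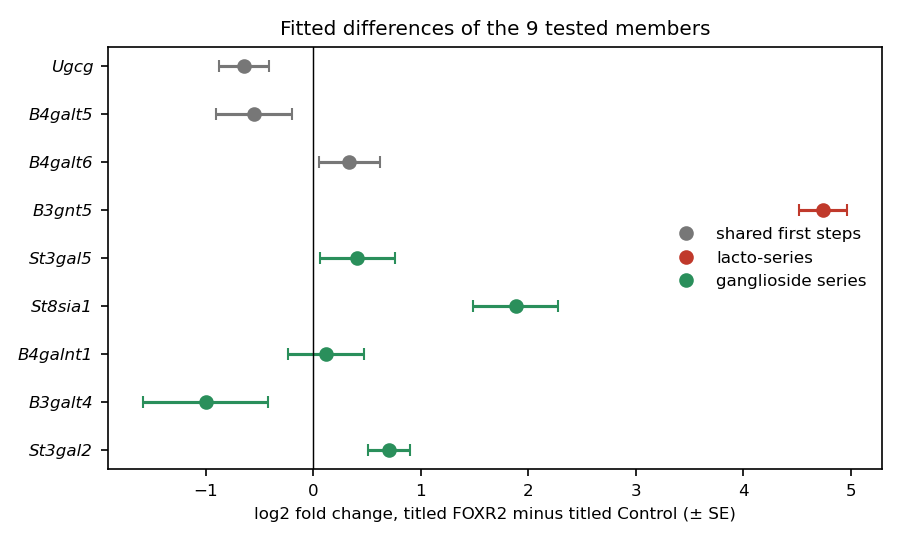
Fitted log2 fold changes (horizontal axis, titled FOXR2 minus titled Control) with bars of ± SE for the 9 enzymes that passed the filter, coloured by their place in the pathway. B3gnt5 lies at 4.74, St8sia1 at 1.88, and the other 7 between -1.0 and 0.71.

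Divided by exon length, the levels of the enzymes could be set in order within each group, with length as the union of annotated exons. B4galnt1 had 3454 bases by that measure and 2395 in its longest transcript. The order was not worked out with the longest transcript, so the places of near neighbours may differ. In the FOXR2-titled libraries St3gal5 was highest, at 21.2 ± 4.52 CPM per kilobase (SD, n = 3), and B3gnt5 next, at 17.9 ± 0.231. Their ranges overlapped, while St3gal2, the next, lay below every B3gnt5 value. It stood at 12.3 ± 2.21, then B4galt6 at 10.3 ± 3.92, B4galnt1 at 9.78 ± 2.67, B4galt5 at 7.79 ± 4.02 and St8sia1 at 7.73 ± 4.46, and from St3gal2 downward the ranges of neighbours in this order overlapped as far as Ugcg at 4.67 ± 1.14. B3galt4, at 1.78 ± 0.904, lay below every Ugcg value and was lowest apart from A4galt. In the Control-titled libraries B3gnt5 stood second from the bottom, at 0.668 ± 0.126 CPM per kilobase, below every value of St8sia1 at 2.10 ± 0.281 and above A4galt. B3galt4, at 3.56 ± 2.24, overlapped St8sia1 and lay below every value of Ugcg at 7.28 ± 0.491. St3gal5 was again highest there by mean, at 16.0 ± 6.57, and overlapped B4galt5 at 11.4 ± 1.13.

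At the branch point, B3gnt5 and St3gal5 took the largest shares of the transcript in each FOXR2-titled library, and St3gal5 and B4galnt1 did so in each Control-titled library. Lactosylceramide is a substrate of B3gnt5, St3gal5, A4galt and B4galnt1, which makes asialo-GM2 from it. Of the summed CPM per kilobase of these 4 genes, B3gnt5 took 37.7, 32.8 and 40.1% in FOXR2 replicates 1, 2 and 3. In Control replicates 1, 2 and 3 it took 2.70, 3.15 and 2.26%. St3gal5 took 36.6, 48.0 and 44.8% in the FOXR2-titled libraries and 74.8, 50.1 and 58.5% in the Control-titled ones. B4galnt1 took 25.7, 19.2 and 15.1% and 22.5, 46.6 and 39.1%, and A4galt at most 0.156%. There were 1.03, 0.685 and 0.894 units of B3gnt5 per unit of St3gal5 in the FOXR2-titled libraries and 0.0361, 0.063 and 0.0386 in the Control-titled ones. These are shares of transcript and not of lipid, and they include the B3gnt5 difference by which the gene was chosen.

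**Figure D3:**
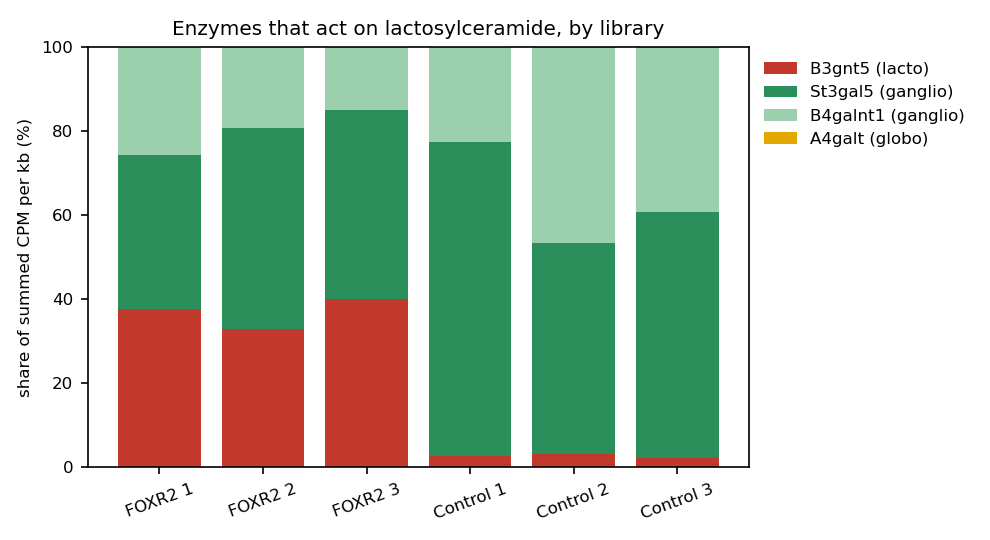
Shares (vertical axis, %) of the summed CPM per kilobase of exon taken by the 4 enzymes that act on lactosylceramide, for each library. B3gnt5 takes 32.8 to 40.1% in the FOXR2-titled libraries and 2.26 to 3.15% in the Control-titled ones, and A4galt is too small to see.

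FOXR2 replicate 2 had the highest summed levels of microglia and mature oligodendrocyte markers. Among the FOXR2-titled libraries, replicate 2 was also highest in 5 of the 9 tested enzymes, namely Ugcg, B4galt5, B4galt6, St3gal5 and B3galt4. The share of all tested genes that were highest in this library was not computed, so nothing is read from the 5. The same library had the 1191 CPM of microglia and macrophage markers and 5409 CPM of 9 mature oligodendrocyte markers. The oligodendrocyte sum was 235 and 1485 CPM in FOXR2 replicates 1 and 3. In Control replicates 1, 2 and 3 it was 1877, 344 and 4364 CPM. Ugcg and B4galt5 were highest in Control replicate 2, B4galt6 in Control replicate 1, and St3gal5 and B3galt4 in Control replicate 3. The part of these cells in the enzyme levels was not tested.

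Summed levels of neuron, astrocyte and oligodendrocyte precursor markers were higher in the FOXR2-titled libraries, although few single markers passed the test. The sum of 8 neuron markers ranged from 1010 to 1217 CPM in the FOXR2-titled libraries and from 658 to 726 CPM in the Control-titled ones. The sum of 7 astrocyte markers ranged from 488 to 668 and from 344 to 444 CPM, and that of 8 oligodendrocyte precursor markers, which include the electroporated Pdgfra, from 7801 to 9924 and from 6009 to 6980 CPM. Without Pdgfra the last sum ranged from 5305 to 6325 and from 3504 to 4963 CPM. None of these 3 sums overlapped between the groups. EdgeR called 1 of 8 tested neuron markers (Syt1, higher), 1 of 6 astrocyte markers (Slc1a2, higher) and 0 of 8 precursor markers, where it called 2.29% of all tested genes. Single markers did not overlap in 4, 2 and 1 of these, with 1 astrocyte marker lower and the rest higher, where 30.3% of all tested genes did not overlap. The part of these cells in the enzyme levels was not tested. Endothelial markers summed to at most 15.2 CPM, and 4 of 5 red blood cell genes had 0 counts in all libraries. Microglia and macrophage markers were high in FOXR2 replicate 2 alone, while B3gnt5 levels lay close together in all FOXR2-titled libraries. A small spread is part of how B3gnt5 was chosen, so nothing is read from this likeness. The part of microglia in its level was not tested.

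**Figure D4:**
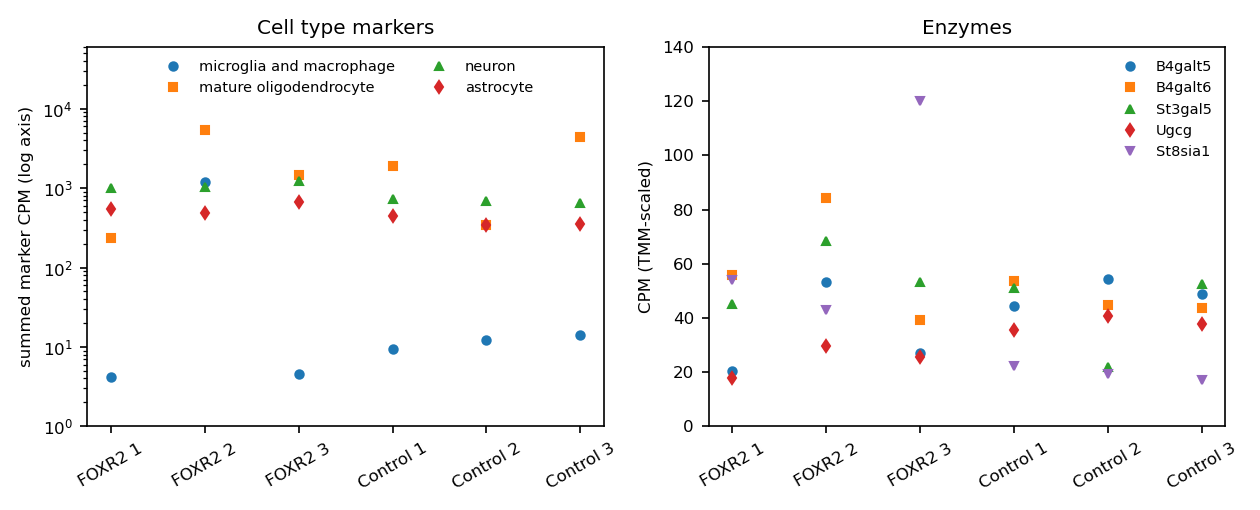
Left, summed CPM of 4 marker lists (log axis) in each library, and right, CPM of 5 enzymes in the same libraries. FOXR2 replicate 2 is alone in its 1191 CPM of microglia and macrophage markers and is the highest library for B4galt6 at 84.3 CPM and St3gal5 at 68.3 CPM, while St8sia1 peaks in FOXR2 replicate 3 at 119.9 CPM.

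The rest of the pathway was followed in 95 further genes on 9 lists, of which 81 were tested. Of these 81, edgeR called 1 higher and 0 lower, where it called 2.29% of all tested genes. Among them 20 had an unadjusted p under 0.05, where 24.9% of all tested genes did. The median log2 difference was 0.0086, with 41 genes fitted above 0 and 40 below, against 0.011 over all tested genes, of which 6648 of 13101 were above 0. DESeq2 called 3 higher and 4 lower, where it called 14.6% of all genes for which it gave an adjusted p (7.30% higher and 7.34% lower).

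The 1 called gene was Gcnt2, the enzyme that branches linear lactosamine chains into the I antigen. It had 48, 81 and 95 counts in the FOXR2-titled libraries and 11, 12 and 5 in the Control-titled ones, or 5.06 ± 1.90 and 0.555 ± 0.231 CPM (SD, n = 3 each). All FOXR2-titled libraries were higher than all Control-titled ones. The log2 fold change was 3.17 ± 0.55 (edgeR adjusted p = 0.0437), and the call was lost whichever 1 of the 6 libraries was left out.

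Gcnt2 was on the list of enzymes that extend or cap lacto and neolacto chains. Of the 16 tested on it, Gcnt2 among them, 13 were fitted above 0, where 6648 of all 13101 were. The median log2 difference was 0.42, against 0.011 over all tested genes, and the highest besides Gcnt2 was not called. An unadjusted edgeR p under 0.05 was seen in 3 of the 16, where 24.9% of all tested genes had one. The groups did not overlap in 4, all with higher values in the FOXR2-titled libraries, where 30.3% of all tested genes did not overlap (13.1% higher). B3gat1, which makes the glucuronic acid part of HNK-1, stood at 105 ± 10.3 against 72.6 ± 13.1 CPM (SD, n = 3 each; log2 difference 0.54 ± 0.20, edgeR adjusted p = 0.150). Many of these enzymes also act on glycoproteins, so they are not particular to lipids.

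Among the other ganglioside enzymes 5 of 7 tested were fitted above 0, with a median of 0.68, against 0.011 over all tested genes. EdgeR called 0 and DESeq2 2, where they called 2.29% and 14.6% of all genes. An unadjusted edgeR p under 0.05 was seen in 4 of the 7, where 24.9% of all tested genes had one. St3gal1, a sialyltransferase that acts on the same kind of chain end as St3gal2, had 7.90, 7.91 and 4.67 CPM in the FOXR2-titled libraries and 1.32, 1.67 and 1.98 CPM in the Control-titled ones. The groups did not overlap, and its adjusted p lay just outside the threshold (log2 difference 2.04 ± 0.40, edgeR adjusted p = 0.0505, DESeq2 adjusted p = 0.00038). St8sia3, a sialyltransferase of brain, did not overlap between the groups, but the size of its difference rested on 1 library. It had 10, 192 and 12 counts in FOXR2 replicates 1, 2 and 3 and 2, 2 and 4 in the Control-titled libraries (edgeR adjusted p = 0.0920). St6galnac5, which makes GD1alpha, rested on FOXR2 replicate 1, with 240 counts there and 10 and 25 in replicates 2 and 3, and DESeq2 called it where edgeR did not. B3galnt1, which makes globoside, stood at 38.6 ± 13.1 against 23.9 ± 0.536 CPM (edgeR adjusted p = 0.166).

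Genes that supply the sugar donors lay mostly on the other side. Of 14 tested, 10 were fitted below 0 with a median log2 difference of -0.39. The groups did not overlap with lower values in the FOXR2-titled libraries in 7 of them, where 17.2% of all tested genes showed this, and with higher values in 2, where 13.1% did. EdgeR called 0 of the 14 (2.29% of all tested genes), with 7 at an unadjusted p under 0.05 (24.9% of all tested genes). DESeq2 called 4 lower, where it called 7.34% of all genes lower. The 4 were Gfpt2, Gnpnat1, Pgm3 and Slc35a1, the Golgi carrier of CMP-sialic acid. Gfpt2, Gnpnat1 and Pgm3 act in the synthesis of UDP-N-acetylglucosamine, the sugar that B3gnt5 transfers. Not all genes of that synthesis were lower. Gfpt1 stood at 160 ± 48.6 against 128 ± 33.7 CPM (log2 difference 0.32 ± 0.30), and Uap1 overlapped between the groups (-0.36 ± 0.29). Slc35a1 stood at 28.3 ± 4.37 against 46.5 ± 2.12 CPM (SD, n = 3 each), with a log2 difference of -0.72 ± 0.19 (edgeR adjusted p = 0.0795). Gnpnat1 had 8.68, 15.6 and 12.4 CPM in the FOXR2-titled libraries and 23.0, 54.7 and 23.6 CPM in the Control-titled ones (edgeR adjusted p = 0.0952).

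The lists for ceramide and for breakdown centred near 0. In ceramide synthesis 8 of 14 tested genes were fitted below 0 (median -0.14), with Sptlc1, a subunit of the enzyme that begins the pathway, at 47.1 ± 11.7 against 74.3 ± 5.37 CPM (edgeR adjusted p = 0.129), and the ceramide synthase gene Cers6 at 1.26 ± 0.47 on the log2 scale (adjusted p = 0.157). In ceramide transport and the sphingomyelin branch 5 of 8 were below 0 (median -0.15), and the smallest adjusted p, 0.170, was that of the ceramide kinase gene Cerk (0.78 ± 0.30), followed by the lipid transfer gene Plekha8 (0.51 ± 0.28). In breakdown 8 of 15 were above 0 (median 0.045). There the glucosylceramidase gene Gba2 had a log2 difference of -0.69 ± 0.24 (adjusted p = 0.139). EdgeR and DESeq2 both called 0 genes in each of these 3 lists, where they called 2.29% and 14.6% of all genes. An unadjusted edgeR p under 0.05 was seen in 2, 1 and 2 genes, where 24.9% of all tested genes had one.

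The galactosylceramide branch of myelin had Fa2h at -1.01 ± 0.99 and Gal3st1 at -0.51 ± 0.91 (edgeR adjusted p = 0.568 and 0.765), with 0 of 3 called by edgeR or DESeq2 and 0 at an unadjusted p under 0.05. Of 8 other genes of the B3gnt family, 5 did not pass the filter. The 3 tested were fitted below 0, among them B4gat1 at -0.25 ± 0.21 and B3gntl1 at -0.39 ± 0.39 (edgeR adjusted p = 0.494 and 0.570), with 0 called by either tool and 0 at an unadjusted p under 0.05. Over all genes edgeR called 2.29% and DESeq2 14.6%, and 24.9% had an unadjusted edgeR p under 0.05.

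**Figure D5:**
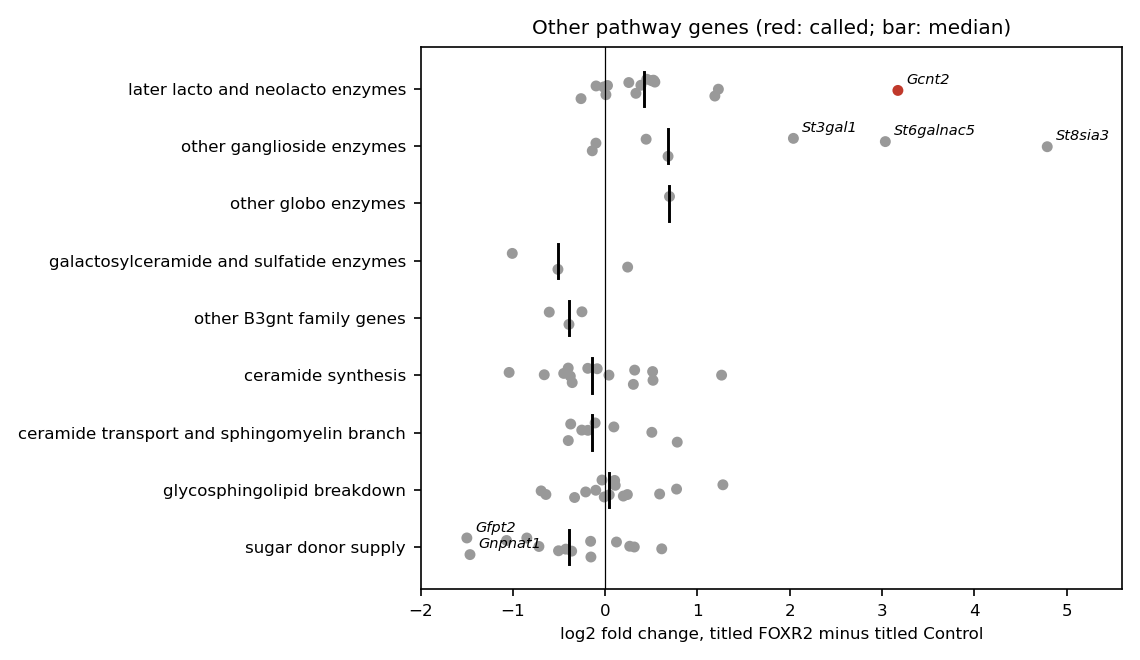
Fitted log2 fold changes (horizontal axis, titled FOXR2 minus titled Control) of the 81 other tested pathway genes, 1 point a gene, by list, with a bar at each list's median. Gcnt2 at 3.17 is the 1 gene called by edgeR, and the sugar donor list has its median at -0.39.

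Genes whose pattern over the 6 libraries was most like that of B3gnt5 came from other families. Likeness was the root mean square difference of log2(CPM + 0.5) after centring each gene on its own mean, over 6 libraries and among named genes averaging 5 CPM or more. Among the 5 nearest were the paralemmin-family gene Palm2 (0.351), Islr (0.409), the clustered protocadherin gene Pcdhb3 (0.456) and the synaptic adhesion gene Sdk1 (0.497). Palm2 had 17.9, 27.1 and 39.9 CPM in the FOXR2-titled libraries and 1.08, 0.536 and 0.755 CPM in the Control-titled ones. Sdk1 averaged below the floor in the Control-titled libraries. Pcdhb3 has related family members, and it had 3, 2 and 15 counts in Control replicates 1, 2 and 3. The sizes of both differences are therefore uncertain. None of the other enzymes or the 95 further pathway genes was among the 5. The 5 were drawn from 10486 candidates, so nothing is read from this.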

How the data were processed

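The submitters' processing notes name TopHat, DESeq2 and the build hg19, although the table lists mouse symbols. Not given in the sources used here are the counting tool, the annotation and whether strand was used. The authors deposited whole-number read counts per gene symbol, and per the labels' protocols the libraries were stranded, poly(A)-selected and read as single 51-base reads. A group word for each library in a second deposited file (no measurement, unit other) was used only for comparison with the titles. Genes were kept by filterByExpr (count minimum 10), scaled with TMM factors (0.961 to 1.03) and fitted with edgeR 4.0.16 in R 4.3.3 (quasi-likelihood F test, no covariate, 3 against 3 libraries). Log2 fold changes use a prior count of 0.125. P-values therefore reflect only the spread of these samples, which may be technical. Exon length is the union of GENCODE M21 exons. The fit was also run on simulated counts with known changes, drawn with the spread fitted to these same libraries. Nothing is read from that run here. Protein sequences were not used here. The members, lists and rules were chosen with earlier results of these data known. Named genes were all members, each called gene and the 2 smallest p-values of each list, and the 5 most like B3gnt5; some of these are not reported here. Neighbours of B3gnt5, Gfpt1, Gfpt2, Pgm3, Uap1 and St6galnac5 were added after their values were seen. For 2 listed genes an older symbol was used. Alternatives were limma-voom (limma 3.58.1), DESeq2 1.42.0, no filter, total-count scaling, RLE factors, a replicate block and leaving out each library.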

Additional observations from a re-analysis of the deposited data

How the results depend on the processing

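B3gnt5 kept its direction and moved by less than its spread (1 SD of log2 CPM between replicates, pooled over the groups) under 12 of 12 alternatives (log2 difference 4.61 to 4.86). These are refits of the libraries in which its p-value led to its choice, so nothing is read from this stability. Of the other 8 tested enzymes, 7 kept their direction under 12 of 12 and B4galnt1 under 10 of 12. By the same measure St8sia1 moved by more than its spread without FOXR2 replicate 3 (1.30). By more than 1 SE of the fit with all libraries, B4galt5 (-1.05) and B4galt6 (0.0059) also moved without FOXR2 replicate 2, and B3galt4 (-0.36) and B4galnt1 (0.52) without Control replicate 3. With all genes, 300 were called; DESeq2 called 1837, and without 1 library 1 to 205 were called, with 205 without FOXR2 replicate 2, 10 without Control replicate 3, 2 without FOXR2 replicate 1 and 1 without each of the others, while 2241 to 3268 had an unadjusted p under 0.05. Of the enzymes DESeq2 called 3 (B3gnt5, St8sia1 and St3gal2), where it called 14.6% of all genes. EdgeR called 1 or 2 enzymes without 1 library, the second being St8sia1 without FOXR2 replicate 2. Of the other pathway genes DESeq2 called 7, and 0 were called with no filter, with limma-voom or without any 1 library (0 to 0), with 7 to 21 at an unadjusted p under 0.05. The cause was not tested. Without length correction the mean B3gnt5 share was 51.2% in the FOXR2-titled libraries and 4.70% in the Control-titled ones, against 36.9 and 2.70% with it, and without 1 library 35.3 to 38.9% and 2.48 to 2.93%.

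With the replicate number as a block (replicate block), 0 of all genes, 0 of the enzymes and 0 of the other pathway genes were called by edgeR, with 2652, 4 and 13 at an unadjusted p under 0.05. B3gnt5 then had a log2 difference of 4.76 (edgeR adjusted p = 0.0533, and 0.000268 to 0.0322 under the other edgeR alternatives). The gene was chosen by its p-value in these same libraries, so nothing is read from these adjusted p-values. Same-numbered libraries did not deviate together (correlations of -0.0161, -0.241 and -0.0104 over genes), and FOXR2 replicate 1 correlated best with Control replicate 2 (0.249). These values showed no pairing by number, but deviations from the mean of 3 libraries cannot exclude one. With 3 libraries a group, genes of few counts such as A4galt could not be compared.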

Other observations

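Of the protein-coding genes looked at on either side of B3gnt5 in the RefSeq gene order, Klhl24 and Yeats2 alone were tested. Both lie on the same side, and they did not share its difference. Klhl24, the gene beyond Klhl6 on one side, had 55.2, 35.4 and 56.8 CPM in the FOXR2-titled libraries and 39.7, 42.4 and 60.6 CPM in the Control-titled ones (log2 difference 0.047 ± 0.26, edgeR adjusted p = 0.929). Yeats2, a chromatin reader gene, stood at 37.9 ± 3.33 against 35.9 ± 5.87 CPM (SD, n = 3 each; log2 difference 0.080 ± 0.19, adjusted p = 0.826). Klhl6, the immediate neighbour, was at 5.38 CPM in FOXR2 replicate 2 and at most 0.0600 CPM in the other libraries. Lamp3, on the other side, stayed at or below 0.190 CPM in all 6, and Olfr170 and Olfr171 beyond it had 0 counts in all libraries. Klhl6, Lamp3, Olfr170 and Olfr171 did not pass the filter and could not be compared.

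Fut4, a fucosyltransferase that can make Lewis X, did not pass the filter and had 7, 9 and 3 counts in the FOXR2-titled libraries and 10, 25 and 24 in the Control-titled ones, while Fut9, the main Lewis X enzyme of brain, had 34.4, 23.9 and 31.7 CPM against 37.9, 26.2 and 27.0 CPM (edgeR adjusted p = 0.975). Both genes were chosen after their values were seen.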
